A study of Mus musculus with 8 samples.

Results

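The axon guidance genes described here are 45 genes of the semaphorin, plexin, Slit, Robo, netrin, Eph, ephrin and RGM families, 24 of them ligands and 21 receptors, out of 21938 protein-coding genes of the mouse annotation. A differential H3K27ac region was given to 1 of them when the protein-coding transcript start nearest to the centre of the region belonged to it, and 108 of the 11180 differential regions of the series were chosen in this way. Regions whose centre lay within 100 kb of a transcript start of the 45 genes were also followed, whichever gene was nearest to them. There were 96 of these, 21 increased and 75 decreased, and 130 regions met either part of the rule, 35 increased and 95 decreased. At the limit of 100 kb, the last regions inside lay 97.6 kb from Sema5a and 99.6 kb from Ephb3, and the first outside lay 103.2 kb from Efna1 and 103.6 kb from Efnb1.

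H3K27ac, acetylation of histone H3 at lysine 27, marks active promoters and enhancers and was mapped by CUT&RUN, in which a nuclease is tethered to the antibody and cuts out the DNA around the mark. The libraries came from primary myotubes, the fused muscle cells that form when muscle precursor cells are kept in differentiation medium, here for 4 days. The KO group was Nrip1KO and the other group Ctrl, with 2 H3K27ac and 2 IgG libraries in each, or 8 libraries in all. Nrip1 encodes RIP140, a coregulator of nuclear receptors. Per the methods of the study, both groups descended from Nrip1 fl/fl mice (C57BL/6J) bred with C57BL/6JN mice that carried Cre recombinase under the muscle creatine kinase promoter. The KO mice carried Cre, and the controls were littermates without it. That promoter is known to become active as striated muscle differentiates, and the extent of deletion in these cultures was not measured in the data used here. The cells were satellite cells of the gastrocnemius muscle that had been expanded in culture and passaged, and nuclei were pooled before they were divided between the antibodies. The methods give a young adult age range for the mice of the study as a whole, males and females, and do not say how many mice stand behind each library. The study called a region increased or decreased in KO from a 2-fold or larger difference in peak intensity. The data used here are 2 lists of regions, 3917 increased and 7263 decreased, with no value for any library. A region is therefore known by its direction and position only, the size of its change and the spread between replicates are unknown, and no p-value is given below. Since the lists hold only regions that differed, the identity of the cells could not be checked from the level of marker genes, and neither could the loss of Nrip1.

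Guidance molecules steer growing axons and migrating cells. Semaphorins act through plexins and neuropilins, Slits through Robo receptors, netrins through Dcc, neogenin and the Unc5 receptors, and ephrins through Eph receptor tyrosine kinases, where both partners sit in the membrane and signal passes into either cell. In muscle these families are known for the guidance of motor axons and blood vessels, for the placing of migrating muscle precursors and, in the case of Sema3a, for release by satellite cells during regeneration.

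The regions closest to a transcript start are shown first, because a mark at a start is the one most readily tied to a gene. Of the 108 regions, 8 had their centre within 1 kb of a start of the guidance gene, 4 increased and 4 decreased. That was 12.5% of the increased and 5.26% of the decreased guidance regions. Over all regions, 12.5% of the increased and 8.44% of the decreased ones lay within 1 kb of a protein-coding start. The 4 increased regions lay at Sema3a, a secreted ligand that repels axons, at Sema4b, a membrane-bound semaphorin, at Plxnc1, the receptor of Sema7a, and at Efna5, an ephrin anchored to the membrane by a lipid. The sequences below are the central 200 bases of each region in the GRCm38.p6 assembly, which corresponds to mm10, read 5′ to 3′ on the strand of the gene. For Sema3a the 142 bases of the region that precede the start are shown. Capitals mark matches to any of 8 motifs that were searched on both strands: the E-box CAGCTG read by myogenic factors, TGACTCA of AP-1, ACATTCC or GCATTCC of TEAD factors, TGTGGT of RUNX factors, TCAAGGTCA of the estrogen-related receptors (ERR), CCGGAAGT of GABPA, the MEF2 motif, and the PPAR repeat, which is 2 copies of AGGTCA with 1 base between them, with up to 2 mismatches.
Efna5, increased, chr17:62880168-62880367, minus strand: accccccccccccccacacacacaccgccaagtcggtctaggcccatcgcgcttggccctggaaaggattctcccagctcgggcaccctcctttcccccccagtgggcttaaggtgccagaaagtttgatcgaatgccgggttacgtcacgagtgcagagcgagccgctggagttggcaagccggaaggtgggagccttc
Plxnc1, increased, chr10:94829798-94829997, minus strand: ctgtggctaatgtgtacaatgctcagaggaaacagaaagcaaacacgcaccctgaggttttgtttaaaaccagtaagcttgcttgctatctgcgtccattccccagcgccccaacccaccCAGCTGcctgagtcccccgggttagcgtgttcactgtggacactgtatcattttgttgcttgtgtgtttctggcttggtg
Sema3a, increased, chr5:13396642-13396783, plus strand: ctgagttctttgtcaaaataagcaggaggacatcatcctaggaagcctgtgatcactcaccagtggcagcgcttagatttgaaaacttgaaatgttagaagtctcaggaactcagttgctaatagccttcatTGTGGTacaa
Sema4b, increased, chr7:80199036-80199235, plus strand: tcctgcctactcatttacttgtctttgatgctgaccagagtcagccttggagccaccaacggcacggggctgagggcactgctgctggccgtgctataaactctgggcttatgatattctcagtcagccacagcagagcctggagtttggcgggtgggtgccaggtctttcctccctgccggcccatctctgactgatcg

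The Sema3a region, chr5:13396642-13397142, was 501 bp wide and its centre lay 0.108 kb from a start. That start is not the 5′ end of the gene in the annotation, which lies 271 kb away, but it is the start that RefSeq lists, and the region shared 192 bp with the RefSeq promoter window of the gene. The Plxnc1 region, chr10:94829505-94830292, also covered a start, that of a non-coding processed transcript 115 kb inside the gene. The Sema4b region, chr7:80198716-80199556, lay 0.6 kb from the start of a transcript with a retained intron and 0.548 kb from the RefSeq start. The Efna5 region, chr17:62879796-62880740, lay 0.876 kb from the start of a protein-coding transcript and 1.05 kb from the 5′ end of the gene, in an intron. It had the highest GC content of the increased guidance regions, 60.8%.

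All 4 decreased regions of this kind lay inside Plxna1, a plexin that transmits the signal of class 3 semaphorins bound to neuropilins. They are shown by the same rule as the increased ones, and no other guidance gene had more than 1 region this close to its starts.
Plxna1, decreased, chr6:89321873-89322072, minus strand: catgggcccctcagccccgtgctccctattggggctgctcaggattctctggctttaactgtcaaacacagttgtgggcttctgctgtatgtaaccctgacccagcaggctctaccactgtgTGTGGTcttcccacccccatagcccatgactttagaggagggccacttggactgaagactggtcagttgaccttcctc
Plxna1, decreased, chr6:89325074-89325273, minus strand: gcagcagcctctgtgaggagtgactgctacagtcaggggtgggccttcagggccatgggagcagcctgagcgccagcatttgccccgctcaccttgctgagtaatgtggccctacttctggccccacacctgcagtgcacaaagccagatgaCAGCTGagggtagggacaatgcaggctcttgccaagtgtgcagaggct
Plxna1, decreased, chr6:89332481-89332680, minus strand: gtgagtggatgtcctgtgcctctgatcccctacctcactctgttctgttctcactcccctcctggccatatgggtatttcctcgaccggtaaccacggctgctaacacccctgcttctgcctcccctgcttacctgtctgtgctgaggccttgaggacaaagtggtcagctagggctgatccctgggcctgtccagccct
Plxna1, decreased, chr6:89333632-89333831, minus strand: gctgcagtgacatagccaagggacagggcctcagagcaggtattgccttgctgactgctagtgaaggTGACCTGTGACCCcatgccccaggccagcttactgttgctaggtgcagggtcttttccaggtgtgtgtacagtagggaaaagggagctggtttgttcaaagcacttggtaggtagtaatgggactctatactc

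The starts beside these 4 regions belong to a transcript with a retained intron, a non-coding processed transcript and a transcript marked for nonsense-mediated decay. The regions lay between 28.9 and 40.6 kb from the 5′ end of Plxna1. None of the 8 regions was within 1 kb of the 5′ end of its gene. When only starts of protein-coding transcripts counted, the increased regions numbered 3 and the decreased 0.

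The widest region of each direction completes the set. The widest increased region stood upstream of Sema3e, the ligand of plexin D1, and the widest decreased region covered the 5′ end of Epha2, an Eph receptor of the A class. Of the 200 central bases of the Epha2 region, 51% are marked as repeats in the RefSeq assembly, while over the whole region the share was 19.3%.
Sema3e, increased, chr5:14008433-14008632, plus strand: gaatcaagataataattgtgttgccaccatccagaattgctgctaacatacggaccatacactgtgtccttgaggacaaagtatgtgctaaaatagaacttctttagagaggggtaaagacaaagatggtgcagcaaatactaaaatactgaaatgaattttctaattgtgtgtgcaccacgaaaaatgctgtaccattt
Epha2, decreased, chr4:141304491-141304690, plus strand: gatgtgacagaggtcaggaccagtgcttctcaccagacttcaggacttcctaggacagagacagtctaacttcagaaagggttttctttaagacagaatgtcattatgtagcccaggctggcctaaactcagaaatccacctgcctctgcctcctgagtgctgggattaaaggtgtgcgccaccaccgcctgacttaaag

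Of the 45 guidance genes, 28 were nearest to at least 1 differential region and 17 to none. At least 1 increased region was nearest to 18 of them, or 40%, against 10.6% of all 21938 protein-coding genes. At least 1 decreased region was nearest to 22, or 48.9%, against 17.8% of all genes. Both directions met at 12 of the 45, against 3.07% of all genes. Many of these genes stand far from their neighbours, but not all of them. The stretch of genome closer to a start of the gene than to any other protein-coding start had a median of 349 kb for the guidance genes and 45 kb for all genes, and measured 26.3 kb for Efna1 and 15.7 kb for Sema3b. Counted per Mb of that stretch, the guidance genes held 1.19 increased and 2.82 decreased regions, and all protein-coding genes 1.44 and 2.66. Per length of genome, both densities at the guidance genes were thus near those of all genes. They were a little lower for increased and a little higher for decreased regions. No spread was computed for them, and the chromosome of each gene was not taken into account. In such cultures, a change in the number of cells that carry a mark and a change of the mark in each cell cannot be told apart.

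**Figure D1:**
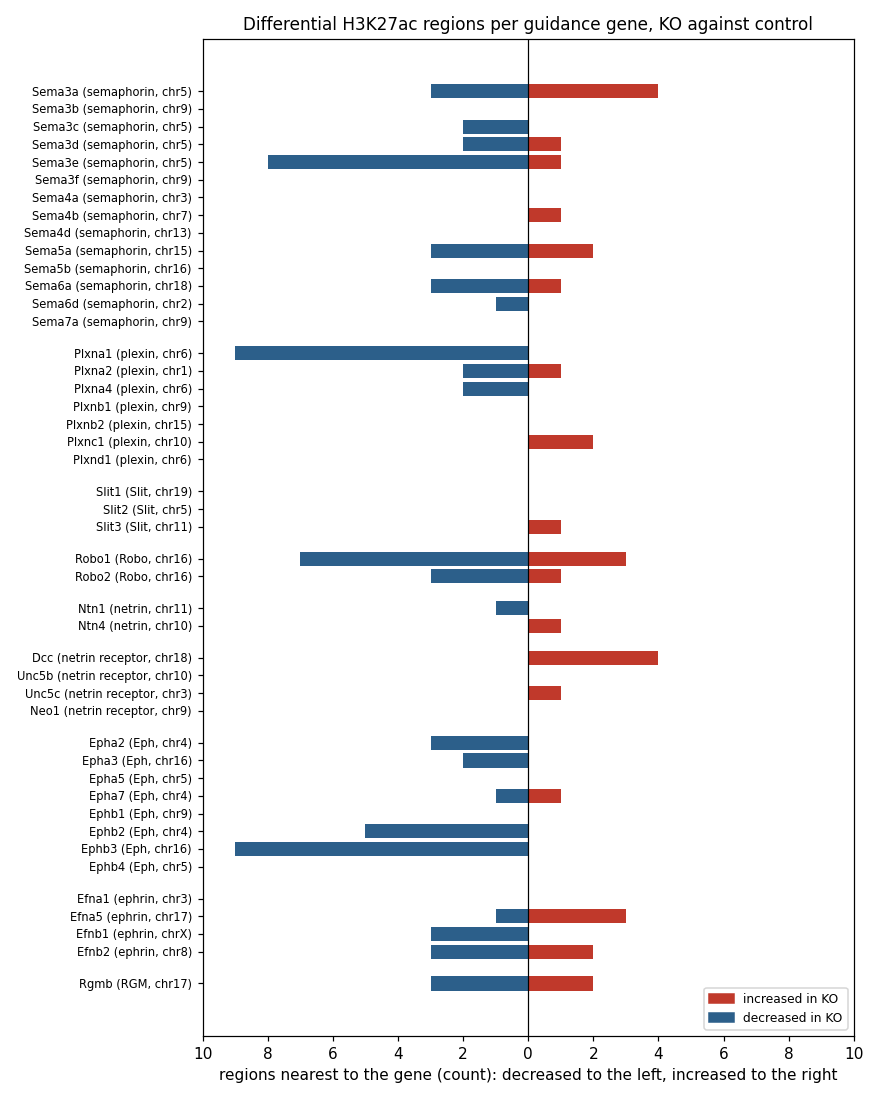
Number of differential H3K27ac regions nearest to each of the 45 guidance genes, with decreased regions to the left of 0 and increased regions to the right, and the family and chromosome of each gene in brackets. Plxna1 and Ephb3 had 9 decreased regions each and no increased one, Dcc had 4 increased and no decreased one, and 12 genes had both.

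The 108 regions comprised 32 increased and 76 decreased ones, so that 29.6% were increased (95% Wilson interval 21.8% to 38.8%, over regions only), against 35.0% of all 11180 regions. Ligand genes had 19 increased and 33 decreased regions, and receptor genes 13 and 43. The share increased was 36.5% for the ligands (24.8% to 50.1%) and 23.2% for the receptors (14.1% to 35.8%), and these intervals overlap. Eph receptors had 1 increased region of 21, or 4.76%, all on chromosomes 4 and 16, and netrin receptors 5 of 5. Semaphorins had 10 increased and 22 decreased regions, plexins 3 and 13, Robo receptors 4 and 10, and ephrins 5 and 7. The intervals count each region as an independent observation. Regions at 1 gene are neighbours on 1 chromosome, so the intervals may be too narrow.

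The direction of differential regions differed strongly between chromosomes, and this bears on each gene below. Over all regions, 7.53% were increased on chromosome 4 and 7.8% on chromosome 16, but 97.7% on chromosome 7 and 69.1% on chromosome 10. Of the guidance regions, 39 lay on these 4 chromosomes, 9 increased and 30 decreased. The other 69 comprised 23 increased and 46 decreased ones, and 33.3% were increased (23.4% to 45.1%) against 30.2% of all regions outside the 4 chromosomes. Had each guidance region followed the share of its own chromosome, 25.2% of the 108 would have been increased, or 31% of the 69. The 3 guidance regions on chromosome 10 were all increased and the only one on chromosome 7 was too. On chromosome 6, where 31.3% of all regions were increased, all 11 guidance regions were decreased. Of these, 9 lay at Plxna1, which became 2 when regions within 10 kb were joined, and 2 lay at Plxna4. On chromosome 17 the guidance regions went the other way, with 5 of 9 increased where the chromosome had 21.2%. The part that chromosomes play in the direction at a single gene was not tested.

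**Figure D2:**
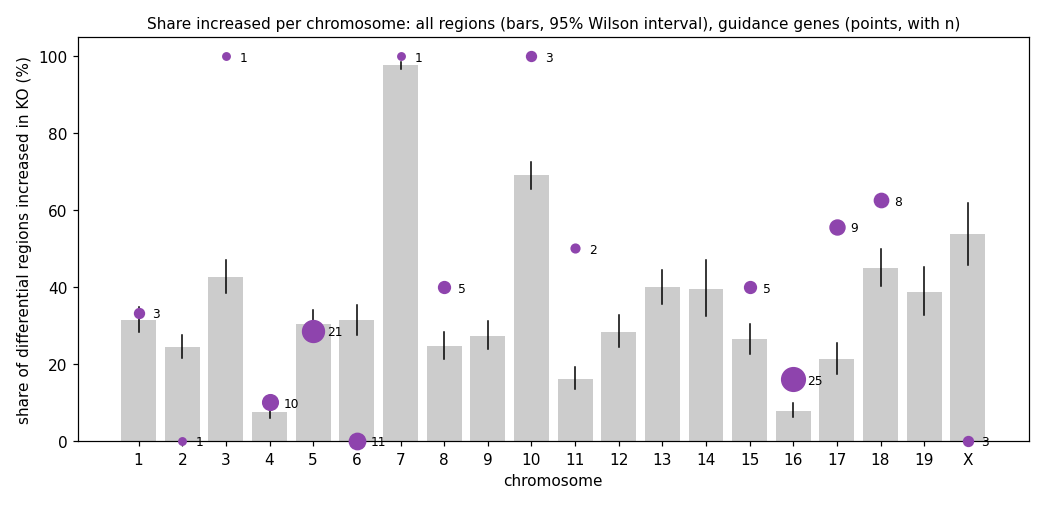
Percentage of differential regions that were increased in KO on each chromosome, for all regions (bars, with the 95% Wilson interval over regions) and for the guidance-gene regions (points, whose area grows with the number printed beside them). All regions ranged from 7.53% on chromosome 4 to 97.7% on chromosome 7, and the guidance regions on chromosome 6 sat at 0 of 11. Of those 11, 9 lay at Plxna1. Chromosome Y, with 1 region, is not drawn.

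Among the ligands, Sema3e had the most regions. All 8 decreased regions lay in introns of the gene, between 7.33 and 73.4 kb from its nearest start, and covered 8040 bp. They were between 501 and 1841 bp wide, and their GC content ranged from 35.3% to 44.4%. Of all protein-coding genes, 75 had 8 or more decreased regions. The only increased region, chr5:14007546-14009520, was 1975 bp wide, the widest of the 32, and lay 16.7 kb upstream of the gene, 26.7 kb from the first decreased one at chr5:14034973-14035473. The 2 directions thus met on either side of the 5′ end of Sema3e.

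Sema3a had 4 increased and 3 decreased regions, which were interspersed along the gene. When non-coding genes could also claim regions, Sema3a was left with 3 increased and 0 decreased ones, so its mixed directions depend on the assignment rule. From the upstream side, a decreased region lay 255 kb before the gene. An increased region at chr5:13076372-13076872 and a decreased one at chr5:13089550-13090971 followed, 13.6 kb apart, which was the shortest distance between opposite directions at any guidance gene. Within the gene were 3 increased regions, 2 of them at or next to the RefSeq start, and then a decreased region 107 kb from the nearest start. All 4 increased regions had the minimum width of 501 bp, while the decreased ones were 626, 1422 and 1156 bp wide. In the region 1422 bp wide, 70.2% of the bases are marked as repeats. At Sema3d, a related secreted semaphorin, 1 increased region lay between 2 decreased ones, and at Sema3c, which attracts some axons, there were 2 decreased regions only, 37.2 and 50 kb from the nearest start.

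These 4 class 3 semaphorins stand in one stretch of chromosome 5, and their 21 regions were all of the guidance regions on that chromosome. The stretch from the first to the last of them measured 5.54 Mb and held 30 differential regions in all, 12 increased and 18 decreased, of which the semaphorins were nearest to 6 and 15. The stretch was picked after its values had been seen.

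The remaining semaphorins had fewer regions. Sema5a, which has both attractive and repulsive effects, had 2 increased regions, 1 upstream at 14.4 kb and 1 within the last part of the gene in a UTR, and between them 3 decreased regions in introns. Sema6a, a membrane-bound semaphorin that can also act as a receptor, had 2 decreased regions in introns, 3.92 and 12.6 kb from a start, and far upstream, at 280 and 299 kb, a decreased and an increased region 19.1 kb apart. The single region of Sema6d was decreased and 77.9% of its bases are marked as repeats. Sema3b, Sema3f, Sema4a, Sema4d and Sema7a were nearest to no region, although each had 1 or 2 decreased regions within 100 kb that were closer to another gene. Sema5b had neither.

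The plexins differed among themselves. Plxna1 had 9 decreased regions and no increased one. They covered 19157 bp within 70.3 kb, and 7 of the 9 lay in introns of the gene, whose whole length is 46.3 kb. Of these, chr6:89335323-89341650 was 6328 bp wide and chr6:89348274-89354152 was 5879 bp wide. Another lay just past the 3′ end and the last 21.2 kb upstream, in an intron of Chchd6. The next protein-coding start was 212 kb or farther from each of the 9 regions. Only 51 protein-coding genes had 9 or more decreased regions. When regions of 1 direction within 10 kb of each other were joined, the 9 became 2, so that the count at Plxna1 reflects regions packed closely together.

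Plxna2 had the second-widest increased region, chr1:194698665-194700282 with 1618 bp, in an intron and 22.4 kb from a decreased region in the same gene, while another decreased region lay 30.6 kb upstream. Plxna4, a plexin A of the nervous system, had 2 decreased regions, 1 of them 1.73 kb upstream of its start. Plxnc1 had increased regions only, the one at an internal start and another 24.8 kb away, both in introns. Plxnb1 and Plxnd1 each had 1 decreased region within 100 kb that was closer to another gene, and Plxnb2 had none.

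**Figure D3:**
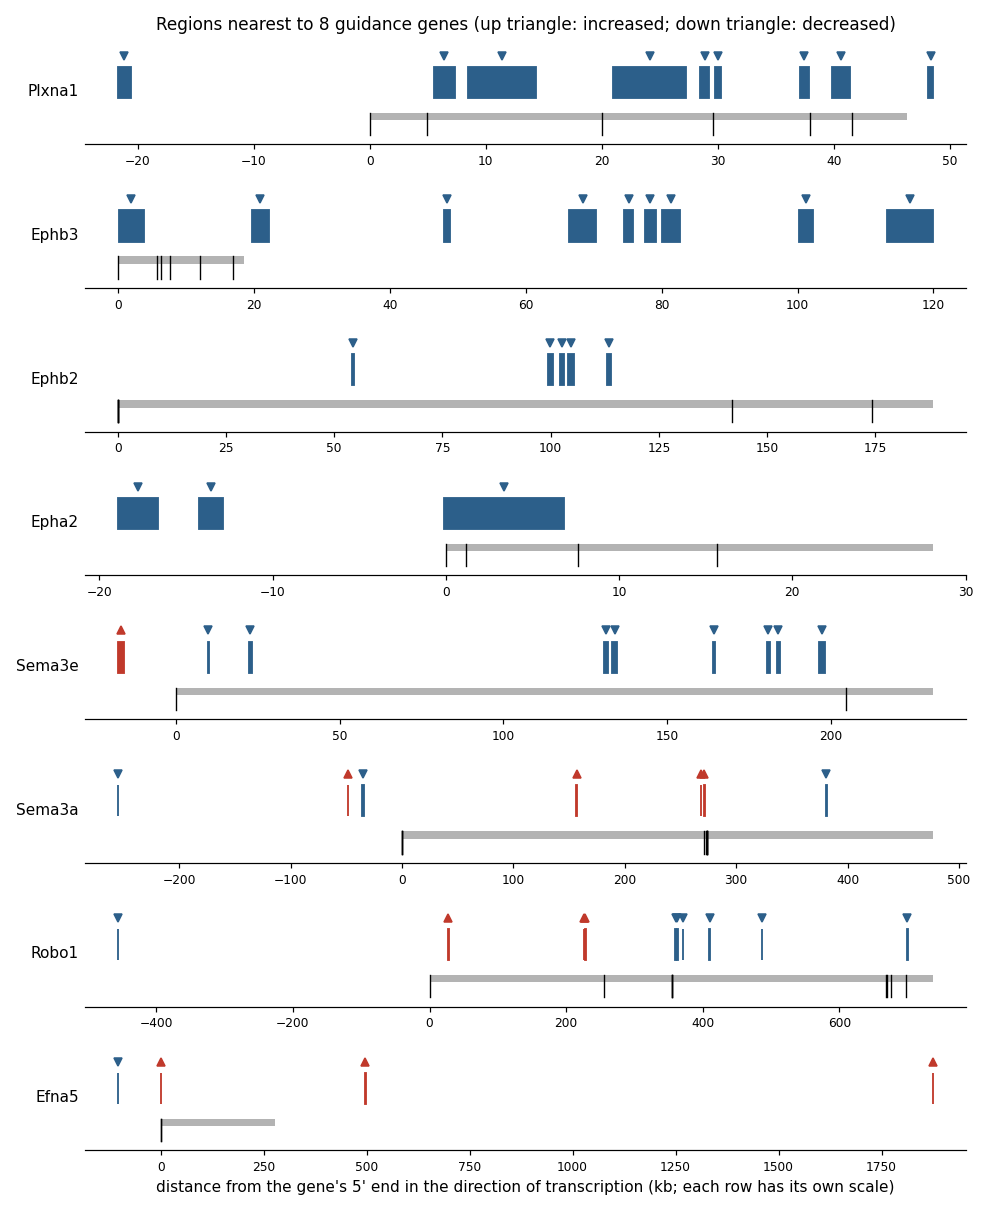
Position of the differential regions nearest to 8 guidance genes, as distance in kb from the 5′ end of the gene in the direction of transcription, with a scale of its own in each row. Grey bars are the genes, black ticks the annotated transcript starts, red boxes with a triangle pointing up increased regions and blue boxes with a triangle pointing down decreased regions, with box outlines that widen the narrowest regions. The 9 regions of Plxna1 and of Ephb3 are all decreased, whereas both directions are interspersed along Sema3a.

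In the Slit and Robo pair, Robo1, the receptor that keeps axons from crossing the midline again, had the most regions of all 45 genes, 3 increased and 7 decreased. The directions were separated along the gene. The 3 increased regions lay in introns on the 5′ side, 27.5 to 29.2 kb from the nearest starts, and the 6 decreased regions within the gene lay on the 3′ side of them. The closest opposite pair was 133 kb apart. The remaining decreased region lay 456 kb upstream. Robo2 had 1 increased and 3 decreased regions, none closer than 131 kb to a start, and the increased region stood 13.9 kb from a decreased one. Both genes are on chromosome 16, where 66 regions were increased and 780 decreased, and the 4 increased regions of Robo1 and Robo2 were the only increased guidance regions there. Of the ligands, Slit3 had 1 increased region of minimum width in an intron, and Slit1 and Slit2 had no region within 100 kb.

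The netrin group had few regions. Netrin 1, encoded by Ntn1, had 1 decreased region, 173 kb from a start, and Ntn4, a netrin of basement membranes, had 1 increased region on chromosome 10. The receptor gene Dcc had 4 increased regions and no decreased one, all in introns and far from a start, at 153, 249, 642 and 794 kb. The 3 farthest had the minimum width and the fourth was 630 bp wide, and on chromosome 18 44.9% of all regions were increased. Unc5c, a receptor for repulsion by netrin, had 1 increased region 19.4 kb from a start. Unc5b had 1 decreased region within 100 kb, nearest to Slc29a3, and Neo1, which encodes neogenin, had none.

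Of the 21 regions at Eph receptors, 20 were decreased. All 5 Eph genes with a region are on chromosome 4 or 16, where 7.53% and 7.8% of all regions were increased, so the share of 4.76% at these genes is near that of their chromosomes. Ephb3 had 9 decreased regions that covered 25876 bp within 120 kb, the largest covered length at any of the 45 genes. The first, chr16:21204881-21208644, filled the 5′ part of the gene with 3764 bp, and the last, chr16:21317895-21324748, was 6854 bp wide and lay 99.6 kb from the nearest Ephb3 start. It was nearly as close to Vps8, whose start was 102 kb away. Of the 9, 5 lay in introns of the non-coding gene Gm16863, and when non-coding genes could also claim regions, Ephb3 was left with 2. Widths ranged from 917 bp upward, and GC content was nearly even, between 50% and 53.9%.

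Epha2 had 3 decreased regions nearest to it. The region over its 5′ end, chr4:141301125-141308057, was 6933 bp wide, the widest of the 108, and shared 146 bp with the RefSeq promoter window. The other 2 lay 13.6 and 17.8 kb upstream. Counting regions nearest to other genes, 8 regions lay within 100 kb of an Epha2 start and all were decreased. Ephb2 had 5 decreased regions, all in introns and 28.5 to 54.1 kb from the nearest start, 4 of them 817 to 1445 bp wide and close together and the other, 501 bp wide, toward the 5′ end. The direction at Epha2, Epha3, Epha7, Ephb2 and Ephb3 and the direction of their chromosomes cannot be told apart. Epha3 had 2 decreased regions of minimum width. Epha7 had 1 region of each direction, 811 kb upstream and 1443 kb downstream, and so on either side of a wide gene-poor stretch. Epha5 and Ephb1 had no region within 100 kb, and Ephb4 had 1 decreased region that was nearest to Ache.

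Among the ephrins, which activate these receptors, Efnb1 had 3 decreased regions downstream, at 19.7, 79 and 104 kb, on chromosome X, where 53.8% of all regions were increased. Efnb2, a ligand known from arteries, had 2 decreased regions in introns at 7.2 and 10.5 kb from a start and another 529 kb downstream, and its 2 increased regions lay more than 1 Mb from the gene, at 1190 and 1433 kb. Of those, the farther one has 55.8% of its bases marked as repeats. Efna5 had 3 increased regions, at 0.876, 497 and 1875 kb, and 1 decreased region 104 kb upstream. Efna1 had none. Rgmb, a coreceptor of bone morphogenetic proteins that also binds neogenin, had 2 increased and 3 decreased regions, all upstream at 95.6 to 543 kb. In 2 of the 3 decreased ones, 93.8% and 98% of the bases are marked as repeats. Only 6 of the 108 regions, 1 increased and 5 decreased, had 50% or more of their bases so marked.

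The increased and the decreased regions of the guidance genes differed in form. Increased regions had a median width of 632 bp (quartiles 501 and 837) and decreased regions one of 934 bp (707 and 1434). Over all regions the medians were 777 and 864 bp. The minimum width of 501 bp was found in 13 of 32 increased regions, or 40.6%, and in 9 of 76 decreased ones, or 11.8%. For all regions these shares were 28.7% and 18.3%. Mean GC content was 41.3% ± 6.69 (SD, n = 32 regions) in the increased and 46.5% ± 6.46 (SD, n = 76) in the decreased regions, below the 43.5% and 48% of all regions. Measured to the nearest start, the guidance regions lay farther away than differential regions in general. This distance is bounded by the stretch nearest to a start, whose median was 349 kb for the guidance genes and 45 kb for all genes. The part of this spacing in the distances was not tested. The median distance was 81.4 kb for increased and 39.8 kb for decreased regions, against 25.1 and 17.1 kb over all, and 28.1% and 10.5% lay more than 250 kb away, against 10.6% and 5.43%.

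**Figure D4:**
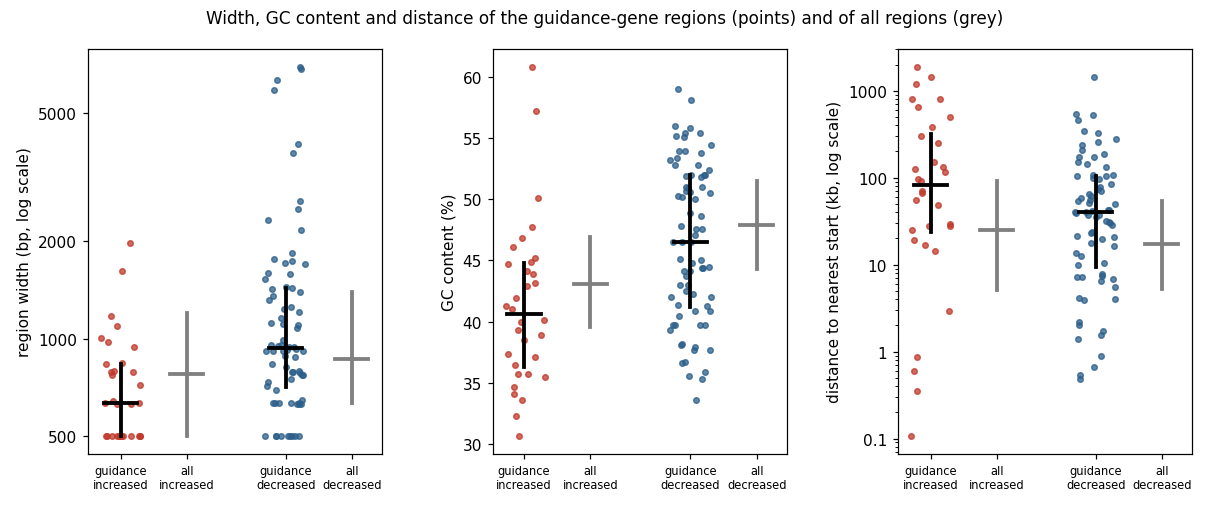
Width in bp (log scale), GC content in percent and distance to the nearest transcript start in kb (log scale) of the 32 increased and 76 decreased guidance-gene regions (points, with median and quartiles in black), and the median and quartiles of all increased and all decreased regions (grey). Median width was 632 bp for increased and 934 bp for decreased guidance regions, and the grey medians of distance lie below the black ones.

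By position, 20 of the 32 increased regions lay inside the gene and 42 of the 76 decreased ones, nearly all of them in introns. None had its centre in a coding exon. Within 10 kb of another differential region were 29 of the 76 decreased regions, or 38.2%, and 4 of the 32 increased ones, or 12.5%, compared with 29.3% and 22.5% of all regions. The nearest other differential region had the same direction for 81.6% of the decreased and 62.5% of the increased guidance regions, with 85.5% and 70.7% over all.

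For the motifs, the 500 bp around each centre were searched. The E-box was found in 37.5% of increased and 31.6% of decreased guidance regions, and in 28.8% and 37.9% of all regions. TGTGGT of RUNX factors was found in 21.9% and 43.4%, and TGACTCA of AP-1 in 25% and 10.5%, where all regions had 34.2% and 36.6% for RUNX and 16.6% and 12.8% for AP-1. TEAD matches occurred in 18.8% and 17.1%, against 17% and 14.2% of all, and MEF2 matches in 15.6% and 5.26%, against 12.2% and 5.3% of all. The order of the directions depended on the window for some motifs. Over whole regions, which are wider on the decreased side, the E-box was in 53.1% of increased and 60.5% of decreased guidance regions, TEAD in 21.9% and 31.6%, and AP-1 in 31.2% and 27.6%. RUNX kept its order, with 31.2% and 69.7%. Over whole regions, all regions of the lists had 44.1% and 57.4% for the E-box and 28.6% and 27.6% for TEAD. They had 25.6% and 24.7% for AP-1, and 51.7% and 57.2% for RUNX. Of the 2 motifs of nuclear receptors, the class of factors that RIP140 binds, TCAAGGTCA was in none of the 108 central windows, and in 0.919% and 1.38% of all increased and decreased windows. The PPAR repeat was in 5 of 76 decreased windows, or 6.58%, 1 of them in the Plxna1 sequence shown above, and in 0 of 32 increased ones, against 8.47% and 6.2% of all. Over whole regions the PPAR repeat was in 15 of 76 decreased guidance regions, or 19.7%, against 18.7% of all decreased regions. It was in 1 of 32 increased ones, or 3.12%, against 12.5% of all increased regions. Over whole regions TCAAGGTCA was in 3 of 76 decreased guidance regions, or 3.95%, against 3.37% of all. It was in 0 of 32 increased ones, against 1.97% of all. CCGGAAGT was in 1 of 76 decreased windows, or 1.32%, and in 0 of 32 increased ones, against 0.661% and 0.664% of all. A match is a run of letters and not a measured binding site, and with 32 increased regions a difference of 1 region moves a share by 3.12 percentage points.

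**Figure D5:**
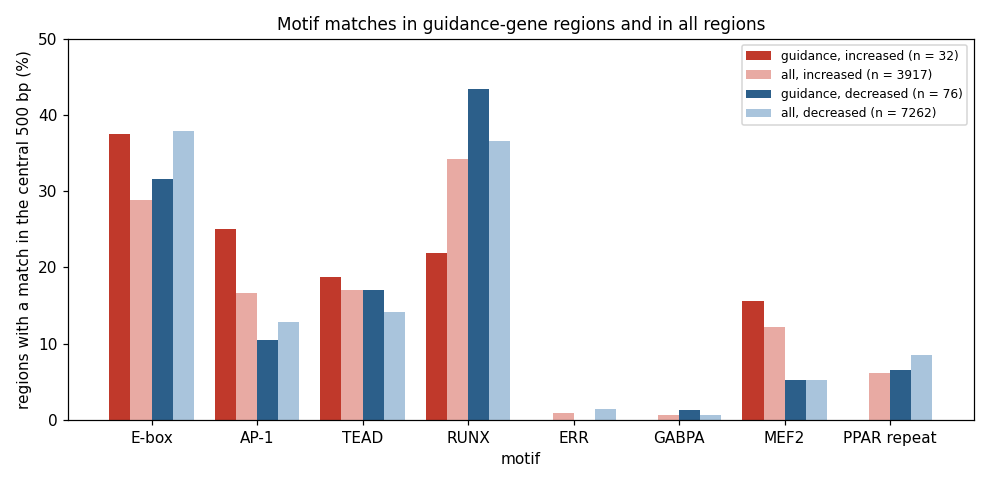
Percentage of regions with at least 1 match to each of 8 motifs in the central 500 bp, for increased (red) and decreased (blue) guidance-gene regions and, in the paler bars, for all increased and all decreased regions. RUNX matches were at 43.4% in decreased and 21.9% in increased guidance regions, and ERR matches at 0 in both.

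Guidance genes outside these 45 were followed as 4 lists with 61 genes in all. Of these, 18 were nearest to an increased region (29.5%, against 10.6% of all protein-coding genes) and 20 to a decreased one (32.8%, against 17.8%). Both directions met at 9 of the 61, against 3.07% of all protein-coding genes. The length of genome nearest to these genes was not set beside their counts. Rgma, the paralog of Rgmb, had 17 increased regions and no decreased one, on chromosome 7. The neuropilin gene Nrp2, coreceptor of class 3 semaphorins, had 1 increased and 4 decreased regions. The 30 intracellular effectors held 12 genes with an increased (40%) and 13 with a decreased region (43.3%). Of these, the adaptor gene Nck2 had 1 and 5, and Enah, which regulates actin filaments, 1 and 4. The other semaphorins, plexins and neuropilins had regions at 4 of 10 genes, the other Slit, Robo, netrin and RGM genes at 3 of 11 and the other Eph and ephrin genes at 3 of 10. In these 3 lists, 20%, 18.2% and 20% of the genes had an increased region, and 40%, 9.09% and 20% a decreased one. The shares in these lists were thus lower than among the effectors, and not all of them exceeded those of all genes.

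Markers of cell types that a muscle culture could hold were listed in the same way, because fibroblasts, Schwann cells and endothelial cells also use guidance genes. Increased regions were nearest to 2 of 12 myotube, 6 of 12 fibroblast, 0 of 10 Schwann cell and 1 of 10 endothelial markers. Decreased regions were nearest to 1, 4, 4 and 4 of them. Among all protein-coding genes, 10.6% were nearest to an increased and 17.8% to a decreased region. No region was nearest to 9 myotube, 3 fibroblast, 6 Schwann cell and 5 endothelial markers. Picked after their values had been seen, Pmp22, a myelin gene, had 6 decreased regions, and the endothelial genes Cldn5 and Cdh5 had 6 and 5. The endothelial gene Kdr had 1 increased region only, and the myotube gene Actn2 had 4 decreased ones. On the chromosomes of Pmp22, Cldn5 and Cdh5, 16.2%, 7.8% and 24.7% of all regions were increased. How far a different mix of cells in the cultures enters the regions at guidance genes was not tested.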

How the data were processed

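Differential H3K27ac regions of Nrip1KO against Ctrl myotubes were taken from 2 deposited interval lists (8 libraries, 4 groups of 2). Per the methods of the study, the authors aligned paired reads to mm10 with BWA-MEM2 (BWA 2.2.1 in the submitters' processing notes), called broad peaks with HOMER 4.11 and kept differences of 2-fold or more. How replicates and IgG entered the calls is not given in the sources used here, and labels and methods name different suppliers of the H3K27ac antibody. The deposited score is 1 in every region and carries no ranking, and the depth of the libraries is unknown.

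Each region was given to the nearest protein-coding transcript start (GENCODE M21) by its centre, and coordinates are counted from 1. Positions could be used for 11179 regions, since 1 lies on an unplaced sequence. GC content, repeat marking and sequences came from GRCm38.p6 (RefSeq), and 37 of the 45 genes were matched in the RefSeq promoter table. Computations used Python 3.11.15 with numpy 2.4.6, scipy 1.17.1 and pysam 0.24.0, and 95% Wilson intervals cover counting over regions only. Motifs were searched on both strands, overlaps included. No sequence of an annotated UTR is printed. Genes with 5 or more regions, with a region within 1 kb of a start, with both directions or with the widest regions were to be described with positions, and distances of the few regions at other members are given too, chosen after their values were seen. The scripts were tested on simulated data. The genes, lists and rules were chosen with earlier results of these data known, so their counts are descriptions without a test.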

Additional observations from a re-analysis of the deposited data

How the results depend on the processing

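No paired analysis was possible because the lists hold no value per library, and for the same reason no replicate could be left out. Of 86 alternatives, 51 stayed within the limits set for a small change and 35 moved a value beyond them. Counts were judged by their ratio to the main count, and the share increased by its Wilson interval. Width and GC content were judged by the SD over regions, which is a wide limit. The median increased width fell from 632 to 501 bp without chromosomes 4, 7, 10 and 16 and still passed. The 51 thus pool unlike rules and do not measure stability. When all annotated genes could claim a region, the guidance genes kept 15 increased and 42 decreased regions, at 9 and 14 genes. The 3 genes that kept both directions were Sema3e, Robo1 and Efna5. Of the other genes that had both, Sema3d, Robo2, Epha7, Efnb2 and Rgmb kept no region, and the rest kept 1 direction. With the nearest start required within 100 kb, 18 increased regions remained and 5 genes had both directions. Regions at least 1 kb wide numbered 5 increased and 32 decreased (13.5% increased), at 5 and 14 genes, 4 with both. Without chromosomes 4, 7, 10 and 16, 46 decreased regions were left, and 12 increased and 45 decreased lay within 100 kb of a start. Within 50 kb there were 49 decreased regions, and within 250 kb 44 increased and 132 decreased. Regions close to a start numbered 0 and 0 within 0.1 kb, 9 decreased within 2.5 kb, and 2 increased and 1 decreased when any base had to touch a start. Under 2 alternatives chosen after seeing the data, 0 increased and 0 decreased regions lay within 1 kb of a gene's 5′ end, and 0 decreased within 1 kb of the start of a protein-coding transcript. The balance of increased and decreased regions near starts thus changed with the definition. Over whole regions, 8 of 16 motif counts moved, and the E-box and TEAD shares became higher in decreased than in increased guidance regions. Over all regions of the lists, the E-box share was higher in decreased regions with either window. The counts near starts depend on which transcripts the annotation lists, and a fold threshold without depth limits all directions.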
